A study of Mus musculus with 9 samples.

Results

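The 10 genes described here encode ligands of the transforming growth factor beta (TGF-beta) and bone morphogenetic protein (BMP) families, an anchor for latent TGF-beta, and receptors of both families: Tgfb1, Tgfb2, Tgfb3, Lrrc32, Bmp4, Bmp7, Tgfbr1, Tgfbr2, Bmpr1a and Bmpr1b. They were chosen as a list of symbols, and all 10 matched the count table of 24503 genes. Of the 10, 9 were among the 13560 genes with enough reads to be tested, and Bmp4 was not.

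Messenger RNA was counted in cultured neural stem cells from the cortex of E13.5 mouse embryos, which had been enriched as neurospheres and were then grown on laminin with FGF and EGF. All 9 libraries came from Phf2flox/flox cells that were otherwise wild type, so the floxed Phf2 allele is common to every group. By viral transduction, the shNT group received a non-targeting short hairpin RNA, and the shRad21_1 and shRad21_2 groups each received a different hairpin against Rad21, which encodes the ring-closing subunit of cohesin. Each group had 3 libraries. The sources used here do not say whether these were separate cultures or animals, or how long after infection the cells were harvested. Each p-value therefore rests on the spread between libraries, and part or all of that spread may be technical.

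TGF-beta ligands are secreted as latent complexes, and LRRC32 (GARP) is a transmembrane protein that holds latent TGF-beta on the cell surface until it is released. Active ligands bring type II and type I receptor kinases together. TGFBR2 with TGFBR1 signals through SMAD2 and SMAD3, whereas BMPs bind BMPR1A or BMPR1B with a type II receptor and signal through SMAD1, SMAD5 and SMAD9. In the embryonic brain, BMP signalling is known for promoting the astrocyte fate and for inducing the Id genes, and TGF-beta2 and TGF-beta3 are made by neural cells.

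Levels are given as CPM, read counts scaled to a common library total. Rad21 itself was 479 ± 45.0 CPM (SD, n = 3) under shNT, 180 ± 6.92 under shRad21_1 and 85.3 ± 5.19 under shRad21_2. Library totals ran from 34780003 to 46644607 counts, at which 3 counts, taken as the floor, equalled 0.0664 to 0.0880 CPM. The first shRad21_1 library stood apart from the other 2 of its group on the first principal component (60.4% of the variance), at 12.4 against -19.9 and -20.8. Libraries 2 and 3 were closer to each other in shNT and in shRad21_1 (chi-square per gene 3.18 and 2.18) than any other pair within a group (23.0 to 69.6), and results were also computed with each close pair summed as 1 library. The summed level of 10 neural stem cell markers was 7131 to 9071 CPM in all 9 libraries, but the markers did not move together. Under shRad21_2, Nes and Pax6 were called higher, and Fabp7, Slc1a3, Msi1 and Notch1 lower, by the edgeR test described below. That is 60% of the 10, beside 43.6% of all genes tested. Nes went from 1218 to 2490 CPM in the mean. Under shRad21_1, 0 of the 10 were called. The summed level of 8 microglia and blood markers was at most 0.186 CPM, with Aif1, Cx3cr1, C1qa and C1qb at 0 throughout. Of 8 endothelial markers, Cldn5 stayed under 3 counts in every library, while 4 had enough reads to be tested. Emcn was at 4.24 CPM and Kdr at 3.35 in the mean under shNT, and the endothelial sum was 6.99 to 14.98 CPM. Kdr and Flt1 were called lower under shRad21_2, 50% of the 4 beside 43.6% of all genes. Under shRad21_2, 4 of 6 tested oligodendrocyte lineage markers were lower and 1 higher (83.3% called). For 5 tested neuron markers it was 3 lower and 1 higher (80%). The sum of 8 astrocyte markers was 716, 730 and 694 CPM under shNT, 372, 591 and 598 under shRad21_1, and 251, 239 and 230 under shRad21_2. Of these 8, 6 were called lower and 0 higher under shRad21_2 (75%, beside 43.6% of all genes), and 0 were called under shRad21_1. Atp1b2 (361 CPM in the mean under shNT, 33.5 under shRad21_2) and Slc4a4 (196 and 33.5) weighed most in the shNT sum. Gja1 went the other way in the mean, from 108 to 155 CPM, and was not called. In these bulk samples, fewer cells of a type and less RNA per cell cannot be told apart.

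Under shRad21_1, 3 of the 9 tested genes fell against shNT (Tgfb3, Tgfbr2 and Lrrc32), and under shRad21_2, 5 fell (Tgfb2, Tgfb3, Lrrc32, Bmp7 and Bmpr1b). A gene was counted where its Benjamini-Hochberg adjusted p in the edgeR quasi-likelihood test was under 0.05. None of the 9 rose against shNT under either hairpin, at 0 genes also by an unadjusted p under 0.05, by DESeq2 and by limma-voom. Over all genes tested, 9.82% were called under shRad21_1 (4.19% higher and 5.63% lower) and 43.6% under shRad21_2 (21.1% higher and 22.5% lower). The 5 genes called under shRad21_2, all lower, are 55.6% of the 9, beside 43.6% of all genes called in either direction and 22.5% lower. The 3 called under shRad21_1, also all lower, are 33.3%, beside 9.82% in either direction and 5.63% lower. The 9 genes are few and were chosen with earlier results known, and the difference in shares was not tested. The median log2 fold change of the 9 was -0.01 under shRad21_1 and -0.60 under shRad21_2, beside 0.01 and 0.01 over all genes. Both comparisons use the same shNT libraries.

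Between the hairpins, Tgfbr2 was higher under shRad21_2 than under shRad21_1, and Tgfb2, Lrrc32 and Bmpr1b were lower, 4 of 9 (44.4%) beside 26.3% of all genes called (11.9% higher and 14.4% lower). The CPM ranges of hairpin and control did not overlap for 4 of the 9 under shRad21_1 (Tgfb3, Tgfbr2 and Lrrc32 lower, Tgfbr1 higher) and for the 5 called genes under shRad21_2, and the hairpins did not overlap for the 4 genes called between them. Such separation was common, at 40.2%, 55.9% and 39.2% of all genes.

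**Figure D1:**
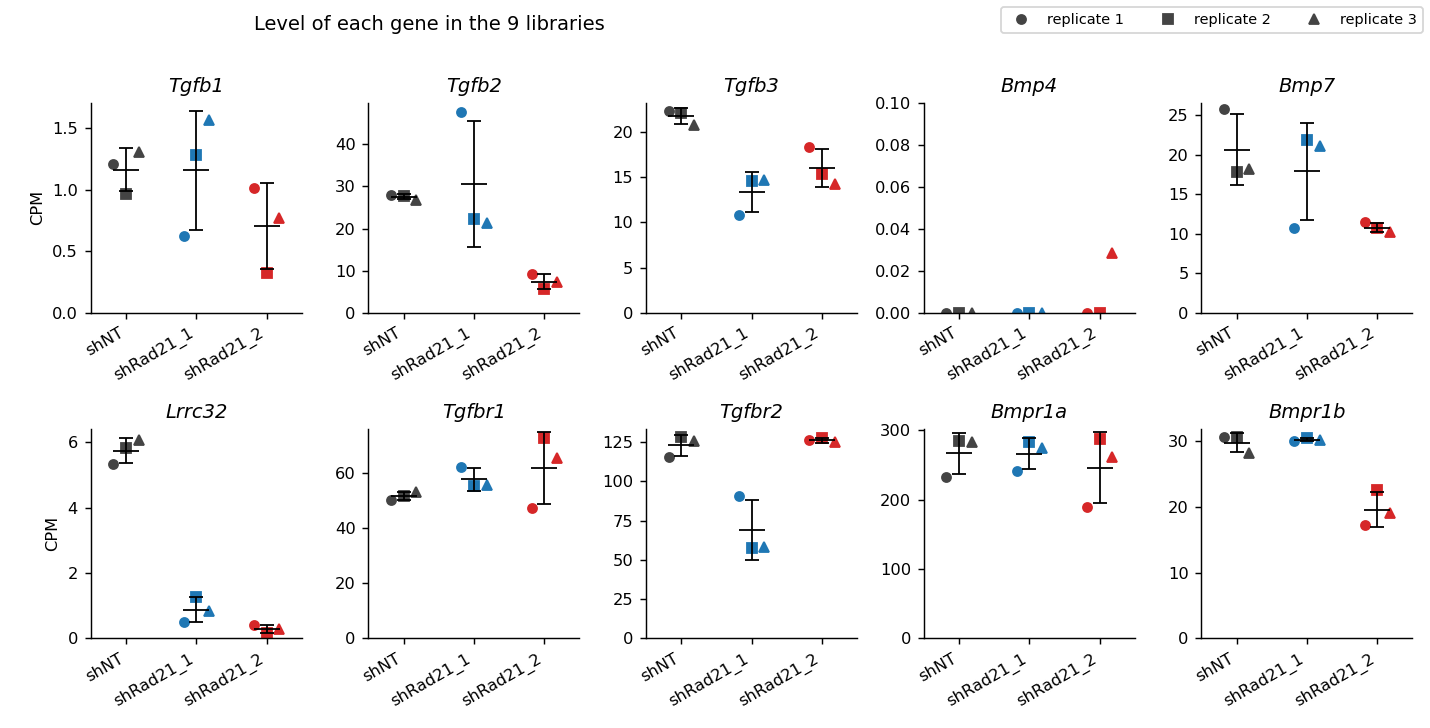
CPM (linear axes from 0, scaled per gene) in each of the 9 libraries for the 10 genes, by hairpin, with a point per library (its shape giving the replicate number) and a black bar for the mean ± SD of 3 libraries (none for Bmp4). Lrrc32 lies lower under both hairpins, Tgfb2 lies lower under shRad21_2 only at 5.51 to 9.21 CPM, and Tgfbr2 lies lower under shRad21_1 only.

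Tgfb2 and Tgfbr2 encode a ligand and the receptor that starts TGF-beta signalling, and each fell under a different one of the hairpins. Their upstream sequences are therefore shown, as the 250 bases before the start of the RefSeq transcript (build GRCm38.p6, the mm10 assembly), read 5′ to 3′ on the minus strand. RefSeq promoter windows matched 7 of the 10 genes, and Tgfb3, Lrrc32 and Bmp7 were not among them. Capitals mark CCAAT (or ATTGG on the other strand), TATAAA and CACGTG. The Tgfb2 window is chr1:186705990-186706239 and the Tgfbr2 window is chr9:116175364-116175613.

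Tgfb2: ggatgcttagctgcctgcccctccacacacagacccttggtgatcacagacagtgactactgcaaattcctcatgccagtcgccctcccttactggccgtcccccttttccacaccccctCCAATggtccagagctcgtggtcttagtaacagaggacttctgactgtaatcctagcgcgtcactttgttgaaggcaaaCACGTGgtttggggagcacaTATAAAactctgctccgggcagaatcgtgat
Tgfbr2: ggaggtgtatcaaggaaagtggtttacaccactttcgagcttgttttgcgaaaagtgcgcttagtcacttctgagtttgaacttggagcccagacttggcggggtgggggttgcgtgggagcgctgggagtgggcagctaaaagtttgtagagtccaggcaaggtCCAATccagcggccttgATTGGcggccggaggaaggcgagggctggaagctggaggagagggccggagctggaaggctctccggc

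These are the CCAAT box, the TATA box and an E-box. The Tgfb2 window held 1 of each, at a GC content of 53.6%. The Tgfbr2 window held 2 CCAAT boxes, 1 on each strand, and neither of the others, at a GC content of 58.4%. Searched on both strands in 32851 windows of the same length, the CCAAT box was in 33.8%, the TATA box in 12.4% and the E-box in 6.02%, and the median GC content was 52.4%. GGGCGG was in 32.7% of windows and in neither of these. The letters describe the windows only.

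Tgfb2, the TGF-beta2 ligand (chromosome 1, 186622792 to 186705989, minus strand), fell under shRad21_2. It measured 28.1, 27.8 and 26.9 CPM in the 3 shNT libraries, 47.8, 22.3 and 21.4 under shRad21_1, and 9.21, 5.51 and 7.39 under shRad21_2. The shRad21_2 libraries were all below the other 6, and the first shRad21_1 library was above all others. Against shNT, the log2 fold change under shRad21_2 was -1.90 (SE 0.30, edgeR adjusted p = 8.8e-04), 3.73-fold lower, and against shRad21_1 it was -2.04 (SE 0.30, adjusted p = 0.00145). Both calls held under all 19 alternative settings. Under shRad21_1 the log2 fold change was 0.14 (SE 0.29, adjusted p = 0.798), which became -0.34 (adjusted p = 0.229) without the first shRad21_1 library. That adjusted p was the lowest over the 19 alternatives, and none passed.

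Tgfb3, the TGF-beta3 ligand (chromosome 12, 86056745 to 86079041, minus strand), was lower under both hairpins by a smaller margin. Its levels were 22.4, 22.2 and 20.8 CPM under shNT, 10.8, 14.6 and 14.7 under shRad21_1, and 18.4, 15.4 and 14.3 under shRad21_2. All 6 knockdown libraries were below the 3 controls, and the 2 hairpins overlapped. The log2 fold change was -0.71 under shRad21_1 (SE 0.14, edgeR adjusted p = 0.0131) and -0.44 under shRad21_2 (SE 0.14, adjusted p = 0.0259). The first call was lost without the second shNT library (adjusted p = 0.0586) and with the close pairs of libraries summed (0.0978). The second failed when any 1 of the 3 shNT libraries was left out, when the second or the third shRad21_2 library was, and with the pairs summed, at an adjusted p of up to 0.0870. Between the hairpins Tgfb3 differed by 0.26 (SE 0.14, adjusted p = 0.193).

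Tgfb1, which encodes the TGF-beta1 ligand (chromosome 7, 25687002 to 25705077, plus strand), had only 11 to 59 counts per library. It measured 1.21, 0.968 and 1.31 CPM under shNT, 0.625, 1.28 and 1.57 under shRad21_1, and 1.02, 0.323 and 0.771 under shRad21_2. The 3 groups overlapped. The log2 fold change was 0.00 under shRad21_1 (SE 0.42, edgeR adjusted p = 0.997) and -0.70 under shRad21_2 (SE 0.43, adjusted p = 0.214), and neither passed in any alternative.

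Lrrc32, the latent TGF-beta anchor (chromosome 7, 98489283 to 98502181, plus strand), had the largest fold change of the 9 tested genes under each hairpin. It measured 5.33, 5.83 and 6.08 CPM under shNT (194, 247 and 274 counts). The shRad21_1 libraries held 0.516, 1.28 and 0.824 CPM (19, 48 and 31 counts), and the shRad21_2 libraries 0.399, 0.176 and 0.285 CPM (18, 6 and 10 counts). No ranges overlapped, and the order was shNT, then shRad21_1, then shRad21_2. The log2 fold change was -2.71 under shRad21_1 (SE 0.32, edgeR adjusted p = 0.00135) and -4.28 under shRad21_2 (SE 0.36, adjusted p = 2.4e-05), 6.55-fold and 19.4-fold lower, and both held in all 19 alternatives. The hairpins differed by -1.57 (SE 0.38, adjusted p = 0.0145). That call was lost without the second shRad21_1 library (-1.19, adjusted p = 0.0556), with only the 2 groups in the fit (0.0567) and with the close pairs summed (0.0638).

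Bmp7, a BMP ligand (chromosome 2, 172868012 to 172940321, minus strand), fell under shRad21_2. It measured 25.8, 17.9 and 18.2 CPM under shNT, 10.8, 21.8 and 21.1 under shRad21_1, and 11.4, 10.7 and 10.2 under shRad21_2. The first shRad21_1 library was at the level of the shRad21_2 libraries and the other 2 were within the shNT range. The log2 fold change under shRad21_2 was -0.93 (SE 0.25, edgeR adjusted p = 0.0124), a call held in all 19 alternatives. Under shRad21_1 it was -0.20 (SE 0.24, adjusted p = 0.649) and turned to 0.06 without the first library of that group. Between the hairpins it was -0.73 (SE 0.25, adjusted p = 0.0530), and without the first shRad21_1 library -0.99 (adjusted p = 9.44e-04). That comparison passed in 5 of 19 alternatives. The astrocyte marker sum was also lower in the shRad21_2 libraries and in the first shRad21_1 library than in the other shRad21_1 libraries. Gja1, a marker within that sum, was instead higher in them. The part of the astrocyte markers in the Bmp7 result was not tested.

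Bmp4, the other BMP ligand listed (chromosome 14, 46383520 to 46390669, minus strand), had 0 counts in 8 libraries and 1 count in the third shRad21_2 library, 0.0285 CPM. Exact intervals for counting error (level 0.95) reached up to 0.108 CPM for a count of 0 and 0.159 CPM for the 1 count. No comparison was made.

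Tgfbr2, the type II TGF-beta receptor (chromosome 9, 116084293 to 116175360, minus strand), fell under shRad21_1 alone. Its levels were 115, 128 and 125 CPM under shNT, 90.9, 57.8 and 58.3 under shRad21_1, and 126, 128 and 125 under shRad21_2. The 3 shRad21_1 libraries were below the other 6, and shNT overlapped with shRad21_2. The log2 fold change under shRad21_1 was -0.83 (SE 0.15, edgeR adjusted p = 0.00981), 1.78-fold lower, and was lost only with the close pairs summed (-0.70, adjusted p = 0.120) among 19 alternatives. Under shRad21_2 it was 0.04 (SE 0.15, adjusted p = 0.858), and the hairpins differed by 0.87 (SE 0.15, adjusted p = 0.00356), in all 19 alternatives. The gene was thus lower with the hairpin that left more Rad21 mRNA.

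Tgfbr1, the type I TGF-beta receptor (chromosome 4, 47353222 to 47414931, plus strand), was called in no comparison. It measured 50.1, 51.8 and 53.0 CPM under shNT, 62.4, 55.2 and 55.5 under shRad21_1, and 47.3, 72.6 and 65.3 under shRad21_2. All shRad21_1 libraries were above the controls, while the first shRad21_2 library was below them. The log2 fold changes were 0.16 (SE 0.14, edgeR adjusted p = 0.507) and 0.26 (SE 0.14, adjusted p = 0.154). Without the first shRad21_2 library the latter was 0.42 (adjusted p = 0.0054), the only 1 of 19 alternatives that passed.

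Bmpr1b, a type I BMP receptor (chromosome 3, 141837136 to 142169425, minus strand), fell under shRad21_2. It measured 30.5, 30.5 and 28.1 CPM under shNT, 29.98, 30.4 and 30.2 under shRad21_1, and 17.1, 22.5 and 19.1 under shRad21_2. The shRad21_2 libraries were below all the others, and the other groups overlapped. The log2 fold change was -0.60 against shNT (SE 0.11, edgeR adjusted p = 0.00144) and -0.63 against shRad21_1 (SE 0.11, adjusted p = 0.00278), both in all 19 alternatives. Under shRad21_1 it was 0.02 (SE 0.10, adjusted p = 0.920).

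Bmpr1a, the other type I BMP receptor (chromosome 14, 34410734 to 34503341, minus strand), had the highest level per length of the 10 genes. Its values were 233, 285 and 283 CPM under shNT, 241, 282 and 275 under shRad21_1, and 189, 288 and 261 under shRad21_2. The groups overlapped, and the log2 fold changes were -0.01 (SE 0.15, edgeR adjusted p = 0.986) and -0.12 (SE 0.15, adjusted p = 0.542).

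**Figure D2:**
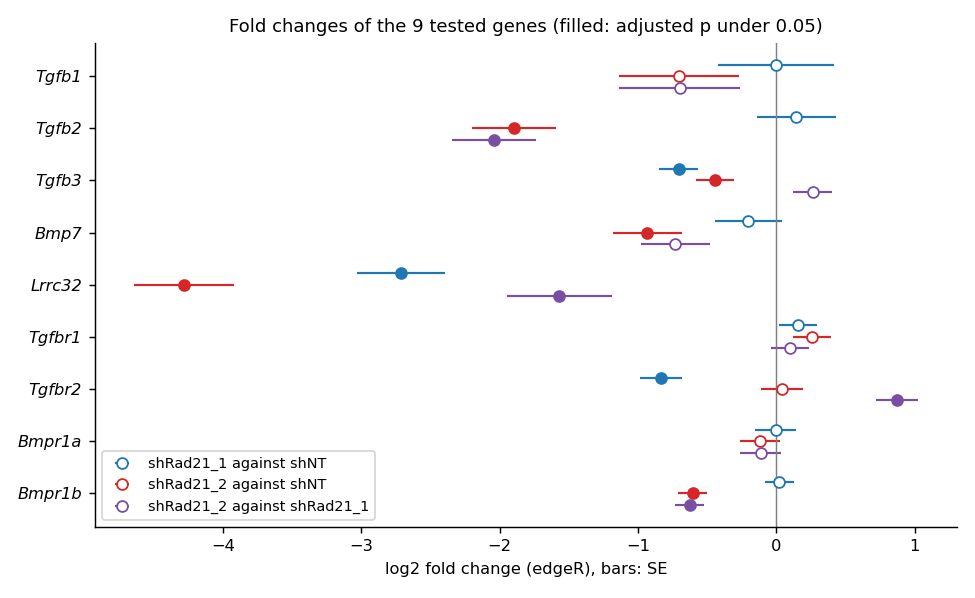
Log2 fold change ± SE from the edgeR fit for the 9 tested genes in the 3 comparisons, with filled points where the adjusted p was under 0.05. Lrrc32 reaches -2.71 and -4.28, Tgfb2 departs under shRad21_2 alone, and Tgfbr2 departs under shRad21_1 alone.

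Exons of the genes overlap annotated exons on the opposite strand by small amounts, 2.14% of the exon length of Tgfb2 with Gm29491, 4.82% and 7.60% of Tgfb3 with Gm37804 and Gm48008, and 4.57% of Bmpr1a with Gm17110. No source used here gives the strand setting of the counting, so reads from these stretches cannot be told apart.

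Levels can be ordered between genes only per length, here as CPM per kb of annotated exon. In the shNT libraries Bmpr1a was highest at 42.0 ± 4.65 CPM per kb (SD, n = 3), followed by Tgfbr2 at 15.01 ± 0.807, Tgfbr1 at 7.91 ± 0.224 and Tgfb3 at 6.45 ± 0.254. Bmp7 at 5.13 ± 1.12, Bmpr1b at 4.99 ± 0.236 and Tgfb2 at 4.76 ± 0.110 came next, and their ranges overlapped. The Bmp7 range, 4.45 to 6.42, also overlapped that of Tgfb3. Lrrc32 at 1.23 ± 0.0805 and Tgfb1 at 0.230 ± 0.0348 were lower, and Bmp4 was at 0. The receptors were thus above the ligands of their own family in shNT, with the exception of Bmpr1b, whose range overlapped that of Bmp7.

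**Figure D3:**
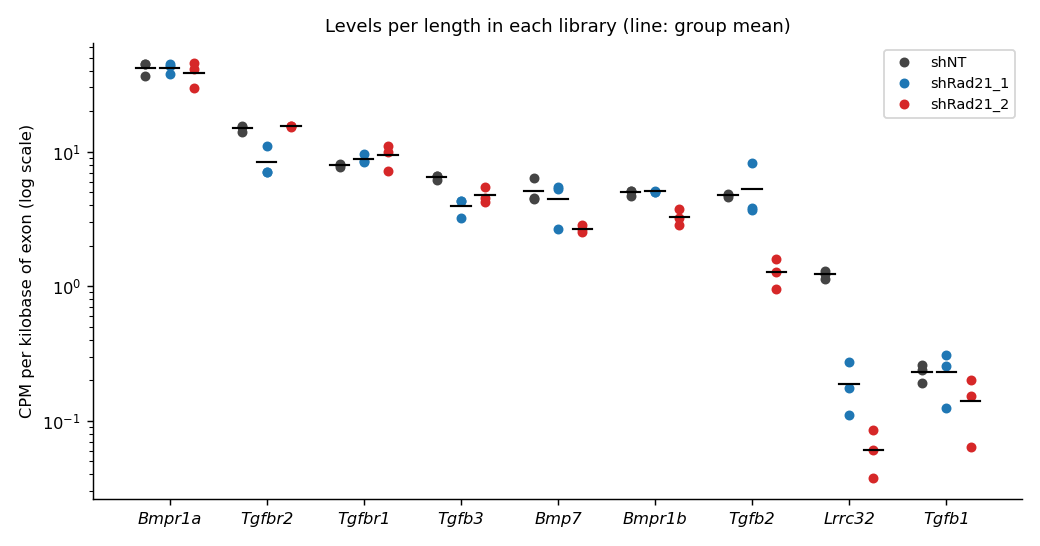
CPM per kb of annotated exon on a log scale for the 9 tested genes, with a point per library coloured by hairpin and a line at the group mean. Bmpr1a is highest in every library, and Tgfb2 drops from 4.76 to 1.27 CPM per kb in the mean under shRad21_2.

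The order of the group means changed in part under the hairpins. Under shRad21_1, Tgfbr1 was above Tgfbr2 and Tgfb2 above Tgfb3 in the mean, neither in every library. Under shRad21_2 these pairs kept their shNT order. In the means of both hairpins Tgfb1 was above Lrrc32 and Bmpr1b above Bmp7. Tgfbr2 was above Tgfbr1 in all shNT libraries, with ratios per length of 1.84, 1.97 and 1.89, and in all shRad21_2 libraries, at 2.13, 1.41 and 1.52. Under shRad21_1 the ratio was 1.16, 0.836 and 0.837, below every other library. The ratio of Tgfb2 to Tgfb3 was 0.732, 0.731 and 0.753 under shNT, 2.58, 0.891 and 0.852 under shRad21_1, and 0.293, 0.210 and 0.303 under shRad21_2. All shRad21_1 ratios were above the controls and all shRad21_2 ratios below them. The ratio of Bmpr1b to Bmpr1a was 0.140, 0.114 and 0.106 under shNT, 0.133, 0.115 and 0.117 under shRad21_1, and 0.0965, 0.0833 and 0.0778 under shRad21_2. In a two-sided exact permutation test, 7 of the 9 ratio comparisons gave p = 0.1, the smallest that 3 libraries against 3 allow (0.129 after Benjamini-Hochberg adjustment over 9). No ratio comparison could therefore pass 0.05, and the share reaching 0.1 among other gene pairs was not computed. The exceptions were Tgfbr2 to Tgfbr1 under shRad21_2 against shNT (exact p = 0.4, adjusted 0.45) and Bmpr1b to Bmpr1a under shRad21_1 against shNT (exact p = 0.8, adjusted 0.8).

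Tgfb3 and Lrrc32 were the genes called against shNT under both hairpins. Among the 3 tested genes whose pattern over the 9 libraries was nearest to Tgfb3 were Mov10 and Helb, by a root mean square difference in centred log2 CPM of 0.0874 and 0.0890. Tgfb3 itself varied by 0.332 on that measure. The nearest to Lrrc32 were Sez6, Fam83f and Wnk4, at 0.403, 0.442 and 0.454, where Lrrc32 varied by 1.74. Sez6 measured -2.05 (SE 0.32, edgeR adjusted p = 0.00501) under shRad21_1 and -3.36 (SE 0.34, adjusted p = 6.07e-05) under shRad21_2.

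The nearest non-overlapping tested protein-coding gene on each side of the 9 tested genes gave 18 neighbours, a comparison chosen after values had been seen. Ttll5, which overlaps Tgfb3 on the opposite strand, was therefore not among them. Under shRad21_2, 4 neighbours were higher and 6 lower (55.6% called, beside 43.6% of all genes), and between the hairpins 7 were called (38.9%, beside 26.3%). Under shRad21_1, 1 was called (5.56%, beside 9.82%), Jdp2, 417 kb from Tgfb3, at -1.19 (SE 0.31, edgeR adjusted p = 0.0406). Ift43, 3.5 kb away on the other side of Tgfb3, was -0.16 (SE 0.17, adjusted p = 0.606) under shRad21_1. Unc5c, a netrin receptor gene 2.21 kb from Bmpr1b, was -2.76 (SE 0.40, adjusted p = 5.29e-04) under shRad21_2. Rrp15, 14.99 kb from Tgfb2, was 0.72 (SE 0.10, adjusted p = 2.85e-04), and Lyplal1, 505 kb away on the other side, was -0.90 (SE 0.17, adjusted p = 0.00227), the latter in the direction of Tgfb2. Beside Lrrc32, Tsku, 128 kb away, fell under shRad21_2 by a smaller amount, -0.42 (SE 0.13, adjusted p = 0.0232), and Uvrag was 0.03 (SE 0.11, adjusted p = 0.830).

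The rest of the pathway was read from lists of 108 further genes, of which 72 were tested. Under shRad21_1, 8 rose and 4 fell (16.7% called, beside 9.82% of all genes), and under shRad21_2, 17 rose and 20 fell (51.4%, beside 43.6%). Between the hairpins 4 were higher and 14 lower under shRad21_2 (25%, beside 26.3%). Some genes are on 2 lists. Of the 12 calls under shRad21_1, 5 held with each library left out in turn, but all 12 were lost with the close pairs summed, where 20 pathway genes had an unadjusted p under 0.05 in edgeR. Among those lost in that setting were Smad3 (adjusted p = 0.0786), Ltbp4 (0.0518), Bmper (0.0794), Twsg1 (0.0645) and Acvr1 (0.0844). Of the 37 calls under shRad21_2, 28 held in every alternative. The count under shRad21_1 fell to 6 without the second or the third shNT library, and that between the hairpins rose from 18 to 31 without the first shRad21_1 library.

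**Figure D4:**
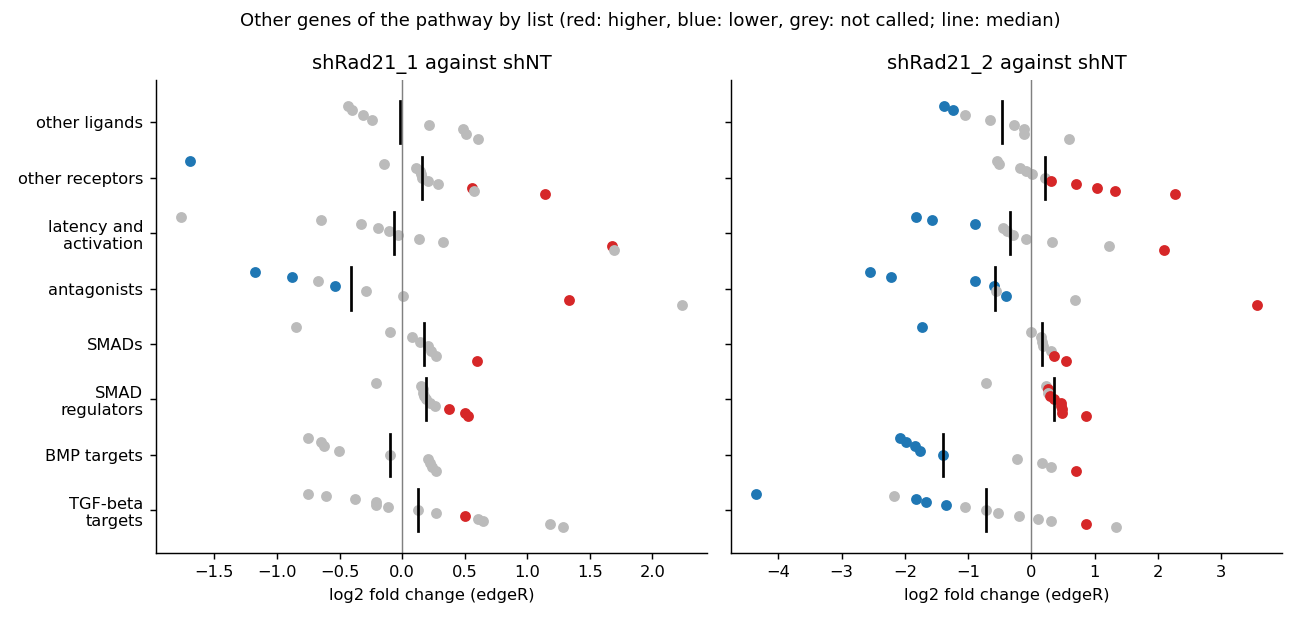
Log2 fold change against shNT of each tested gene (a point) in 8 pathway lists, with shRad21_1 in the left panel and shRad21_2 in the right, coloured where the edgeR adjusted p was under 0.05, and a black line at the median of the list. Under shRad21_2 the list of SMAD regulators has 8 higher and 0 lower of 11, and the BMP target list has 1 higher and 5 lower of 9. Over all genes tested, 21.1% were higher and 22.5% lower under shRad21_2.

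Among 8 other tested ligands, Inhbb, which encodes an activin subunit, and Gdf15 fell under shRad21_2, and 0 rose, so that 25% were called beside 43.6% of all genes. Inhbb went from 8.19 ± 1.94 to 3.13 ± 0.912 CPM, a log2 fold change of -1.38 (SE 0.28, edgeR adjusted p = 0.00327). Gdf15 measured 10.7 ± 2.74 CPM under shNT and 4.57 ± 0.0704 under shRad21_2 (-1.23, SE 0.19, adjusted p = 6.76e-04). Gdf11 (-0.27, adjusted p = 0.15) did not pass. Gdf1 (-1.05, SE 0.39, adjusted p = 0.0515) passed in 9 of 19 alternatives, among them the replicate block (-1.15, adjusted p = 0.00453), DESeq2 (0.0173), limma-voom (0.0438) and the fit without the third shRad21_2 library (0.0169). Gdf1 was also lower under shRad21_2 than under shRad21_1 (-1.53, SE 0.39, adjusted p = 0.018), a call lost without the third shRad21_1 (0.0624) or the first shRad21_2 library (0.0557). Under shRad21_1, 0 of the 8 were called by edgeR or limma-voom, 1 by DESeq2 and 1 at an unadjusted p under 0.05. At an unadjusted p under 0.05, 0 of the 8 were higher under either hairpin by edgeR, DESeq2 or limma-voom.

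Among 11 other receptors and coreceptors, 5 rose under shRad21_2 (Tgfbr3, Acvr2b, Eng, Bambi and Acvr1) and 0 fell. Beside 43.6% of all genes called and 21.1% higher, that is 45.5% of the 11. At an unadjusted p under 0.05, 0 were lower by edgeR or limma-voom and 1 by DESeq2. Tgfbr3, betaglycan, which presents TGF-beta2 to TGFBR2, measured 1.29, 1.86 and 1.04 CPM under shNT, 3.29, 3.17 and 2.82 under shRad21_1, and 4.94, 8.68 and 6.71 under shRad21_2. No groups overlapped, and its order was the reverse of that of Lrrc32. Its log2 fold change was 2.27 under shRad21_2 (SE 0.27, edgeR adjusted p = 1.46e-04) and 1.14 under shRad21_1 (SE 0.27, adjusted p = 0.0256). That latter call did not hold without the first (adjusted p = 0.0734) or the third (0.107) shNT library, the second shRad21_1 library (0.0639) or both first libraries (0.0819), or with the close pairs summed (0.105). Acvr2b, an activin type II receptor, rose by 1.04 (SE 0.19, adjusted p = 0.00167), and Eng, endoglin, by 1.33 (SE 0.36, adjusted p = 0.0140), both under shRad21_2. The call of Bambi under shRad21_2 was lost without the first or second shNT or the third shRad21_2 library, and that of Acvr1 without the first or the third shNT or the second shRad21_2 library. Under shRad21_1, Acvr1 rose by 0.56 (SE 0.09, adjusted p = 0.00630) and Acvrl1 fell by 1.69 (SE 0.43, adjusted p = 0.0341). Acvrl1 was at most 1.25 CPM in each library and lost its call without the second or the third shNT library or the third shRad21_1 library.

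Of 10 tested genes of latency and activation, 3 fell and 1 rose under shRad21_2, or 40% called beside 43.6% of all genes. Ltbp1, which encodes a protein that binds latent TGF-beta to the matrix, measured 9.02 ± 0.721 CPM under shNT and 3.04 ± 0.309 under shRad21_2 (-1.57, SE 0.15, edgeR adjusted p = 4.75e-05). Itgb8 and Itgav encode the pair of integrin subunits that releases active TGF-beta from latent complexes, including those held by LRRC32. Itgb8 measured 62.2 ± 7.65 CPM under shNT, 39.6 ± 9.21 under shRad21_1 and 17.6 ± 4.97 under shRad21_2 (-1.82 for the latter, SE 0.22, adjusted p = 1.69e-04). Itgav measured 299 ± 18.6, 261 ± 5.12 and 162 ± 25.8 CPM (-0.89 under shRad21_2, SE 0.11, adjusted p = 1.64e-04). Ltbp4, another latent binding protein gene, rose under both, from 44.9 ± 10.5 CPM to 144 ± 48.7 (1.68, SE 0.25, adjusted p = 0.00441) and 193 ± 17.2 (2.10, SE 0.26, adjusted p = 1.78e-04).

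Of 8 tested secreted antagonists and modulators, 3 fell and 1 rose under shRad21_1, where 50% were called beside 9.82% of all genes. Under shRad21_2, 5 fell and 1 rose, where 75% were called beside 43.6% of all genes. Bmper, Chrdl1 and Twsg1 fell under both. Bmper, a BMP-binding modulator, measured 28.3 ± 0.750 CPM under shNT, 15.4 ± 3.24 under shRad21_1 (-0.88, SE 0.14, edgeR adjusted p = 0.00489) and 4.84 ± 0.255 under shRad21_2 (-2.55, SE 0.15, adjusted p = 3.3e-06). Chrdl1, a BMP antagonist, measured 83.9 ± 7.85, 37.1 ± 14.1 (-1.18, SE 0.24, adjusted p = 0.0153) and 18.1 ± 1.37 CPM (-2.22, SE 0.25, adjusted p = 1.18e-04). Its call under shRad21_1 was lost without the second shNT library (adjusted p = 0.0549) and with the close pairs summed (0.0727). Fst, follistatin, which binds activins, rose under shRad21_1 by 1.33 (SE 0.34, adjusted p = 0.0372), but not when any 1 shNT or any 1 shRad21_2 library was left out. Nbl1 measured 45.3 ± 4.14 CPM under shNT and 24.5 ± 2.68 under shRad21_2 (-0.89, SE 0.12, adjusted p = 3.71e-04). Nog, noggin, rose under shRad21_2 (adjusted p = 0.00153) at very low counts, from 0.137, 0 and 0.0887 CPM to 0.576, 1.03 and 1.14.

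Of 8 SMADs, 1 rose under shRad21_1 (12.5% called, beside 9.82% of all genes), and 2 rose and 1 fell under shRad21_2 (37.5%, beside 43.6%). Smad3 rose under both hairpins, from 38.2 ± 2.85 CPM to 57.8 ± 7.60 (0.60, SE 0.10, edgeR adjusted p = 0.00738) and 55.9 ± 1.91 (0.55, SE 0.10, adjusted p = 0.00208). Smad4 rose (0.35, SE 0.08, adjusted p = 0.00636) and Smad9 fell (-1.73, SE 0.30, adjusted p = 0.00129) under shRad21_2. The other 5 of 8 passed in neither, Smad1 being at 0.18 (adjusted p = 0.0763) under shRad21_2. Between the hairpins 0 of the 8 were called by edgeR, DESeq2 or limma-voom, and 1 had an unadjusted p under 0.05. Of 11 SMAD regulators, 8 rose and 0 fell under shRad21_2 in edgeR, with 1 lower at an unadjusted p, by DESeq2 and by limma-voom, and 4 rose without the third shNT library. Of the 11, 72.7% were called, beside 43.6% of all genes called and 21.1% higher. Pmepa1, an inhibitor of TGF-beta signalling that TGF-beta itself induces, rose by 0.87 (SE 0.12, adjusted p = 4.19e-04), and Fkbp1a, whose product binds type I receptors, by 0.48 (SE 0.09, adjusted p = 0.00185). Smurf1 rose by 0.47 (SE 0.09, adjusted p = 0.00206) and Ski by 0.36 (SE 0.09, adjusted p = 0.00955), also under shRad21_2. Under shRad21_1 Smurf1, Tgif1 and Pmepa1 rose, and none of these 3 calls held without any 1 of the shNT libraries.

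Of 9 tested BMP target genes, 5 fell under shRad21_2 (Id1, Id3, Id4, Atoh8 and Hey1) and Bambi rose, 66.7% called beside 43.6% of all genes. Over all genes, 21.1% were higher and 22.5% lower. The other 3 were not called in edgeR, Id2 at -0.23 (adjusted p = 0.561), Smad6 at 0.17 (0.766) and Smad7 at 0.31 (0.310). The median log2 fold change was -1.40, beside 0.01 over all genes. Under shRad21_1, 0 of the 9 were called by edgeR, DESeq2 or limma-voom, and 0 had an unadjusted p under 0.05 in edgeR. Id3, a helix-loop-helix inhibitor of differentiation, measured 187, 256 and 270 CPM under shNT, 70.6, 193 and 190 under shRad21_1, and 78.0, 62.1 and 70.5 under shRad21_2 (-1.76, SE 0.32, adjusted p = 0.00184, edgeR). Hey1, a Notch and BMP target, measured 50.4, 54.9 and 55.9, then 13.3, 47.7 and 43.3, then at most 16 CPM in the 3 shRad21_2 libraries, 13.6 ± 2.35 in the mean (-1.98 under shRad21_2, SE 0.37, adjusted p = 0.00219). Id1 measured 26.7, 81.5 and 84.8, then 17.4, 46.4 and 50.7, then 13.9, 15.5 and 16.6 CPM (-2.07 under shRad21_2, SE 0.46, adjusted p = 0.00505). For Id3 and Hey1, as for Bmp7, the first shRad21_1 library was at the shRad21_2 level and the other 2 were not. With the first shNT and shRad21_1 libraries left out, 3 BMP targets were lower under shRad21_1 and 6 under shRad21_2.

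Of 13 tested TGF-beta target genes, 4 fell under shRad21_2 (Tgfbi, Cdkn2b, Acta2 and Junb) and Pmepa1 rose (38.5% called, beside 43.6% of all genes). Their median log2 fold change, over all 13, was -0.72. Acta2, smooth muscle actin, measured 1.65, 3.71 and 3.90 CPM under shNT, 3.59, 8.86 and 8.62 under shRad21_1, and 0.155, 0.0880 and 0.200 under shRad21_2 (-4.35, SE 0.54, edgeR adjusted p = 2.03e-04). The shRad21_2 group held 17 counts of Acta2 in all, and its second library was at the floor of 3 counts. The size of that fall thus rests on few reads. The sum of 8 mesenchyme and mural markers was 58.3 to 66.7 CPM under shNT. It was 50.6 to 61.5 under shRad21_1 and 46.8 to 48.3 under shRad21_2. Foxc1 made up most of it, at 60.7 ± 4.65 CPM under shNT and 47.3 ± 0.727 under shRad21_2. Of the 3 tested markers, Foxc1 and Pdgfrb were called lower under shRad21_2 (66.7%, beside 43.6% of all genes). Pdgfrb went from 0.313 ± 0.0993 to 0.0605 ± 0.0286 CPM. Lum and Twist1 were under 3 counts in every library. The part of these markers in the Acta2 result was not tested. Cdkn2b, a cell cycle inhibitor, measured 11.3 ± 2.06 CPM under shNT and 4.43 ± 1.76 under shRad21_2 (-1.34, SE 0.25, adjusted p = 0.00194). Junb was at 55.9, 105 and 108 CPM under shNT and 31.0, 26.5 and 27.4 under shRad21_2 (-1.67, SE 0.46, adjusted p = 0.0149), a call lost without the second or the third shRad21_2 library. The number that fell was 7 without the first shNT library, 3 without the second or the third, and 2 without the third shRad21_2 library. Under shRad21_1, Pmepa1 was the single target called.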

How the data were processed

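Messenger RNA was sequenced from 9 libraries, 3 per hairpin group. Per the submitters' processing notes, the authors used FastQC, cutadapt, Trim Galore, Bowtie2 and RSEM with the mouse build mm10. Versions, annotation, strand setting and the rounding of RSEM estimates are, in the sources used here, not given. The deposited values are raw read counts per gene symbol.

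From these counts, CPM was computed on TMM-scaled totals. Genes passing filterByExpr (minimum count 10) were tested with edgeR 4.0.16 (quasi-likelihood, 1 fit of all 9 libraries) in R 4.3.3, two-sided, with Benjamini-Hochberg adjustment over 13560 genes and a threshold of 0.05. The SE is the size of the log2 fold change over the square root of F. Exon lengths and positions came from GENCODE vM21 (GRCm38, which is mm10). The script was tested on simulated data.

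The genes, pathway lists and naming rule were chosen with earlier results of these data known. The rule named all 10 listed genes, Rad21, and from each list the 4 genes with the smallest p under shRad21_2. Other called genes of a list were named where 5 or fewer were called. For each listed gene called under both hairpins it named the 3 genes of nearest pattern, of which 1 is not reported here.

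Alternatives were DESeq2 1.42.0 (size factors, Wald test), limma 3.58.1 (voom), library totals, other filters, only the 2 groups compared, a replicate block, each library left out, the close pairs summed, and the first shNT and shRad21_1 libraries left out. Libraries of the same number deviated together in shNT and shRad21_1 (correlations 0.245, 0.118 and 0.121), where every pair was over 0.1. With shRad21_2 the correlations were 0.0650, 0.0787 and 0.0890 for shNT, and 0.0900, 0.0155 and 0.0203 for shRad21_1. The second shNT library correlated at 0.163 with the third shRad21_1 library, and the third with the second at 0.157. The pairing comes from the numbers in the labels alone.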

Additional observations from a re-analysis of the deposited data

How the results depend on the processing

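Of 1897 recomputed log2 fold changes of single genes, 1713 kept their direction and side of the threshold. Another 147 fell short of it, 17 newly passed it and 20 changed sign, and the cause was not tested. These were the 9 tested genes, Rad21, and pathway genes already called in the main fit or named by the rule. The pathway genes thus mostly started as called, with more room to lose a call than to gain one. The counts do not describe genes in general. With each library left out, 2 to 3 of the 9 genes were called under shRad21_1, 4 to 6 under shRad21_2 and 3 to 5 between the hairpins. The same counts for pathway genes were 6 to 13 under shRad21_1 and 13 to 31 between the hairpins, and for all genes 460 to 1598 and 2054 to 4471. Summing the close pairs left 1 of the 9 genes called under shRad21_1 and 0 pathway genes (20 at an unadjusted p under 0.05 in edgeR), and 132, 3710 and 1271 of all genes in the 3 comparisons. DESeq2's Wald test called 2042 genes under shRad21_1, a fit of only the 2 groups 2255 between the hairpins. Leaving out the first shNT and shRad21_1 libraries gave 34 pathway genes between the hairpins.

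With the replicate block, 3, 5 and 4 of the 9 genes were called, as without it, and 15, 38 and 22 pathway genes; the pairing thus changed no call of the 9. Library totals in place of TMM moved the split of all genes under shRad21_2 from 2861 higher and 3056 lower to 2167 and 3541, and between the hairpins from 1608 and 1955 to 1095 and 2310.

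The sign changes were all of differences that did not pass. With each library left out, under shRad21_1 Tgfb1 ran from -0.28 to 0.29, Tgfb2 from -0.34 to 0.34, Bmp7 from -0.37 to 0.060, Bmpr1a from -0.095 to 0.061 and Bmpr1b from -0.018 to 0.043. Under shRad21_2, Tgfbr2 ran from -0.0049 to 0.068 and Bmpr1a from -0.25 to 0.039. Between the hairpins, Tgfbr1 ran from -0.036 to 0.26 and Bmpr1a from -0.24 to 0.046. Under shRad21_1, Tgfb1 was 0.0033 with the block and Bmpr1a 0.0066 with pairs summed. With both first libraries left out, Tgfb1 was 0.32, Tgfb2 -0.32 and Bmp7 0.25 under shRad21_1, and Tgfbr2 -0.0049 under shRad21_2. With library totals Tgfbr2 was -0.034 under shRad21_2. Bmp4, with 1 count in all, could not be tested.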
